A study of Mus musculus with 25 samples.

Results

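In FACS-sorted microglia, 9 long noncoding RNAs (lncRNAs), grouped as nuclear lncRNAs and snoRNA host genes, were followed. They were Malat1, Neat1, Gas5, Snhg1, Snhg8, Snhg12, Kcnq1ot1, 2610035D17Rik and 4732440D04Rik, taken by symbol from the gene identifiers of the count table. Of these 9, 8 had a row among the 43411 genes of the table, 7 had counts, and the same 7 were among the 12908 genes with enough counts to be tested. Microglia came from mice of 3 months, 1 library per mouse, sorted as CD11b+ CD45med cells from brain without cerebellum and olfactory bulbs. There were 6 WT littermates (Bin1flox/wt Thy1-Cre-, 2 females and 4 males), 7 heterozygous mice (Het-cKO, Bin1flox/wt Thy1-Cre+, 4 females and 3 males) and 10 homozygous mice (Homo-cKO, Bin1flox/flox Thy1-Cre+, 5 females and 5 males). All mice came from the cross of B6.129S6-Bin1tm2Gcp/J with FVB/N-Tg(Thy1-cre)1Vln/J, and the WT littermates also carry 1 floxed allele. Thy1-Cre removes Bin1 from forebrain excitatory neurons, so the gene is not targeted in the cells that were sequenced, and the comparisons ask how microglia differ when neurons lack Bin1. All WT and heterozygous mice have animal numbers in the range 02xx, and homozygous mice in 03xx (6 mice) or 04xx (4 mice), so genotype and number range cannot be told apart.

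These transcripts are grouped as nuclear lncRNAs and snoRNA hosts, and where each lies in the cell was not measured. Malat1 collects in nuclear speckles, the stores of splicing factors, and Neat1 is the scaffold on which paraspeckles assemble, bodies that hold RNA-binding proteins and edited RNA and that grow under stress. Kcnq1ot1 is read from the paternal allele, antisense inside the potassium channel gene Kcnq1, and silences its imprinted neighbours. Gas5 and the Snhg genes are snoRNA hosts. Their introns release small nucleolar RNAs, which guide methylation (C/D box) or pseudouridylation (H/ACA box) of ribosomal RNA, while the spliced host RNA is poorly translated and is usually removed by nonsense-mediated decay. In brain macrophages Neat1 is best known for its rise on inflammatory activation. For 2610035D17Rik and 4732440D04Rik, a lincRNA and an antisense RNA in the annotation, no role or place in the cell is given here.

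The members lie on 6 chromosomes of GRCm38. Malat1 (chr19:5795690-5802672) and Neat1 (chr19:5824708-5845478) are neighbours on the minus strand, and Snhg1 (chr19:8723475-8726443) is on the plus strand of the same chromosome. Snhg8 lies at chr3:123507552-123508404, Snhg12 at chr4:132308623-132311024 and Gas5 at chr1:161034422-161038539. Kcnq1ot1 (chr7:143203458-143296549) lies inside Kcnq1 and 4732440D04Rik (chr1:6209866-6215293) inside Rb1cc1, each on the strand opposite to its host, and 2610035D17Rik spans chr11:113043895-113201838. The start of the 4 host genes is shown to set it beside genes of the translation machinery, which often begin with a C and a run of pyrimidines. The lines give the first 30 bases in RefSeq (GRCm38.p6), with the pyrimidine run at the start in capitals.
Gas5 (chr1:161035166-161035195, plus): CTTTCggagctgtgcggcattctgagcagg
Snhg1 (chr19:8723487-8723516, plus): CTCatttttccttgttcggggtaagtactc
Snhg8 (chr3:123508307-123508336, minus): CTCTTTggctgcgatccgcctacgagtatg
Snhg12 (chr4:132308678-132308707, plus): TTTCTCgcttcatccgcggtccctgtctgt

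A C followed by at least 3 more pyrimidines, that is a run of 4 or longer, opened the Gas5 start shown and Snhg8, but not Snhg1, whose run is 3 long, or Snhg12, whose run begins with T. Another Gas5 start in the table has no such run. The same pattern opened 3.76% of 32851 start sites in the table, 18.4% of 76 start sites of cytosolic ribosomal protein genes and 14.3% of 21 start sites of snoRNA host lncRNAs, the members included. These shares rest on the exact annotated start base, and where transcripts begin in these cells was not measured. The snoRNA inside Snhg8 and the C/D box snoRNA inside Snhg12 are shown as the products these hosts carry, from the mouse gene annotation (GENCODE M21), with the ACA box, or the C and D boxes, in capitals.
Snora24 (chr3:123507937-123508066, minus): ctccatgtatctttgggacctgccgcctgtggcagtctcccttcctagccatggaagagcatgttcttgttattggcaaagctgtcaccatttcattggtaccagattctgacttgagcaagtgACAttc
Snord99 (chr4:132310691-132310764, plus): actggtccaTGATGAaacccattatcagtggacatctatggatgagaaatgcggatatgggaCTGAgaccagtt

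The libraries were primed on poly(A) tails, and the mature snoRNAs have none. Of 5 snoRNAs annotated in Snhg12, the highest sum over all 23 mice was 6.99 counts, and Snora24 in Snhg8 summed to 1.59 counts. Of 8 in Snhg1, the highest, Snord22, summed to 31 counts over 23 mice. The values below are therefore those of the host transcripts, not of the snoRNAs. Snhg1 itself was matched to no row of the table and is not analysed here.

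Gas5 is listed at 0 in 23 of 23 mice, and no level or change can be given for it. It lies in a stretch of 20.126 Mb (chr1:143598800-163725232) in which 115 consecutive protein-coding genes, and 336 annotated genes of any kind with a row, are listed at 0 in every mouse. Among them are Arpc5, Prdx6 and Tpr, which most cells express and which were chosen after their values were seen. The 10 snoRNA genes inside Gas5 are listed at 0 as well.

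Counts per mouse summed to between 10812969 and 16734846. Levels are given as CPM, the usual depth-scaled unit with library totals corrected by TMM, and different genes are compared as CPM per kb of exon. Exon length was taken over all annotated transcripts of a gene, 20.77 kb for Neat1. Which transcripts were present was not measured. The order therefore depends on these lengths, and a gene whose shorter transcripts prevail is set too low. In WT microglia, Malat1 was by far the highest in this measure, at 419 ± 182 CPM per kb (SD, n = 6), followed by Snhg8 at 4.12 ± 1.02 CPM per kb. How Malat1 reads arose in libraries primed on poly(A) tails was not tested. 4732440D04Rik had 1.90 ± 0.526, Neat1 1.22 ± 0.421, 2610035D17Rik 0.888 ± 0.133 and Snhg12 0.848 ± 0.248 CPM per kb. Within these 4, neighbours in the order differed by less than their SDs added together. Kcnq1ot1, annotated as a single exon of 93.09 kb, was last at 0.258 ± 0.0846 CPM per kb, below Snhg12 by more than their added SDs. In raw counts, Malat1 had between 20358 and 73350 counts in a mouse. Snhg8 had 22 to 110 counts and Snhg12 had 13 to 53, and 2610035D17Rik averaged 25.8 counts in WT, 26.7 in heterozygous and 140 in homozygous mice.

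**Figure D1:**
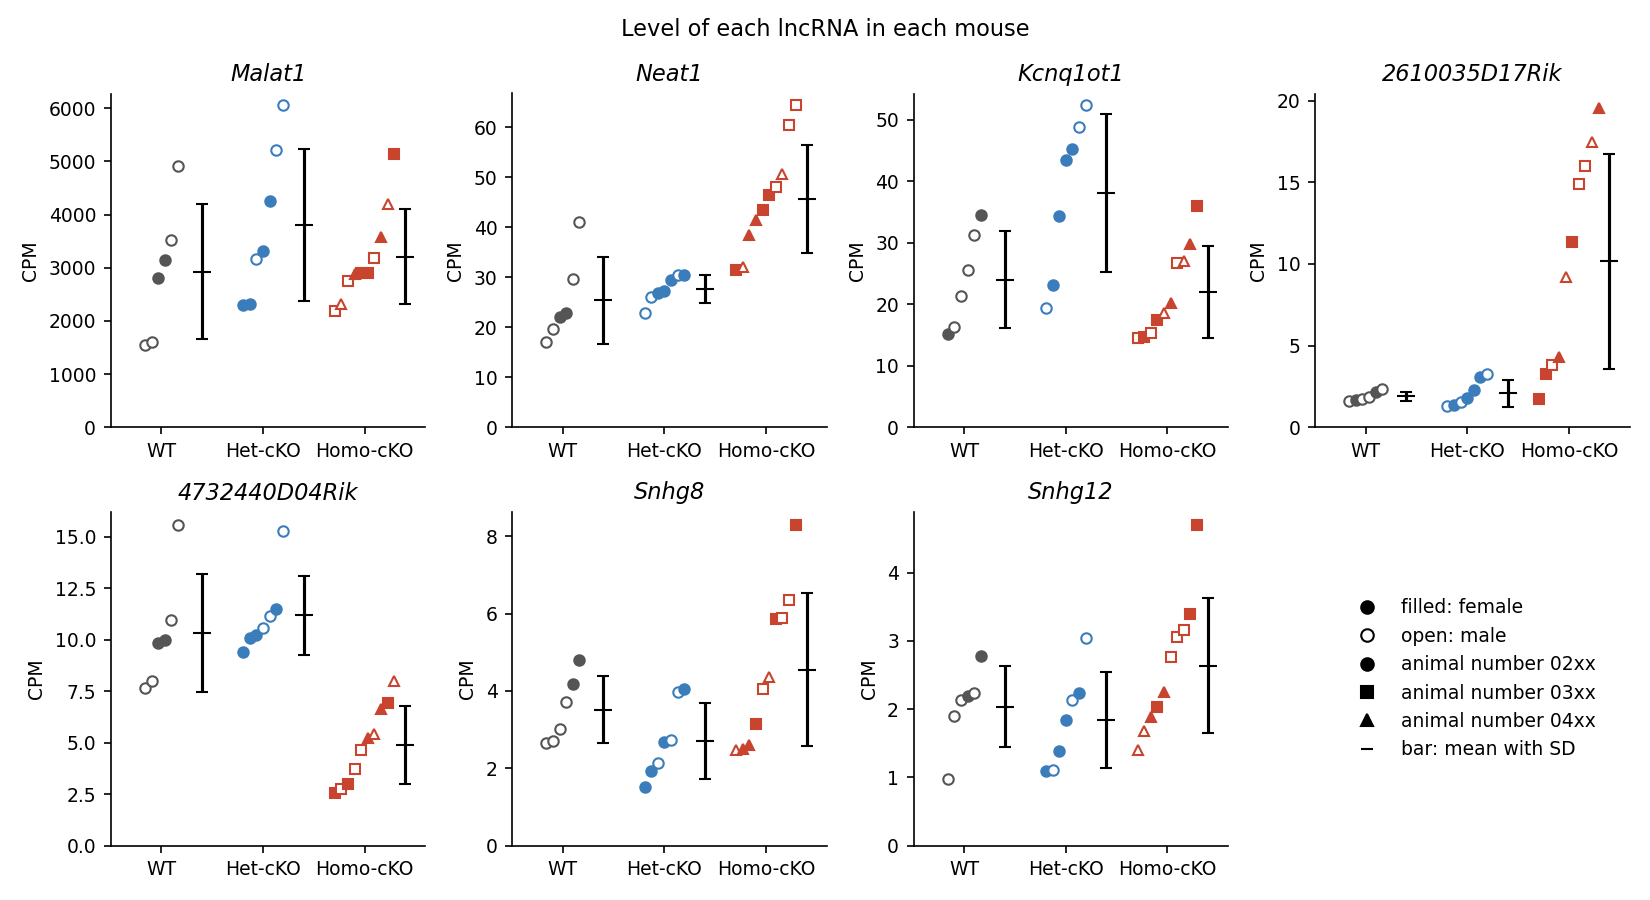
Level (CPM, linear axis from 0) of the 7 lncRNAs with counts, 1 point per mouse by genotype, with the group mean and SD beside the points. Filled points are females, open points males, and the shape gives the animal-number range. Neat1 and 2610035D17Rik lie higher and 4732440D04Rik lower in homozygous mice, whereas Malat1 overlaps between all 3 genotypes.

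Neat1, 2610035D17Rik and 4732440D04Rik differed between homozygous mice and WT littermates, the first 2 rising and the third falling. Malat1, Kcnq1ot1, Snhg8 and Snhg12 did not pass the test. A gene was called at an adjusted p below 0.05 (edgeR's quasi-likelihood test, Benjamini-Hochberg adjustment over all genes tested) and a fold change above 1.5. By this rule 3 of 7 members were called, against 3.40% of all genes tested. The median log2 fold change was 0.35 over the 7 members and 0.012 over all genes. The members were chosen with earlier results of these data known, so neither figure tests the group against all genes. No member had all homozygous mice outside the WT range, which 0.674% of genes did on the high side and 1.14% on the low side.

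Counts of Neat1 were taken over all its annotated transcripts, so a change cannot be assigned to any single transcript or to paraspeckles. Neat1 had a lowest, median and highest level of 17.04, 22.5 and 41.0 CPM in WT littermates. The same 3 values were 22.8, 27.2 and 30.5 CPM in heterozygous mice and 31.4, 44.9 and 64.4 CPM in homozygous mice. All homozygous mice lay above all heterozygous mice, which 1.36% of genes tested did, and 7 of 10 lay above all WT mice, where a single male at 41.0 CPM reached into their range. The 2 highest were both homozygous males, at 64.4 and 60.4 CPM. WT mice averaged 25.4 ± 8.75 CPM (SD, n = 6) and homozygous mice averaged 45.7 ± 10.9 CPM (SD, n = 10). Neat1 thus rose by 0.87 ± 0.16 (log2 fold change and standard error, adjusted p = 0.0011). It kept its sign in each of 23 fits that left out 1 mouse, with log2 fold changes from 0.77 to 1.04 and adjusted p of 0.0055 at most. In a refit of males alone the log2 fold change was 0.92 and the adjusted p was 0.051. In the edgeR fit of all mice grouped by genotype and sex, it was 0.93 in males (adjusted p = 0.0091) and 0.84 in females (adjusted p = 0.14).

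2610035D17Rik, a lincRNA with little signal in WT microglia, showed the largest change of the 7. Its lowest, median and highest levels were 1.62, 1.79 and 2.32 CPM in WT littermates and 1.27, 1.79 and 3.24 CPM in heterozygous mice, and 1.75, 10.3 and 19.5 CPM in homozygous mice. The homozygous mice spread over an 11.2-fold range. In 3 females it was 1.75, 3.24 and 4.27 CPM and in 1 male 3.83 CPM, and the other 6 had between 9.21 and 19.5 CPM. Both sexes and both number ranges were found in the low and in the high values, and in 9 of 10 homozygous mice the level exceeded that of every WT and heterozygous mouse. WT mice averaged 1.88 ± 0.282 CPM (SD, n = 6) and homozygous mice averaged 10.2 ± 6.61 CPM (SD, n = 10), and it rose by 2.45 ± 0.43 on the log2 scale (standard error after the sign, adjusted p = 0.00082). In a refit of females alone the log2 fold change was 2.08 and the adjusted p was 0.24. In the edgeR fit of all mice grouped by genotype and sex, it was 2.08 in females (adjusted p = 0.19) and 2.70 in males (adjusted p = 0.0070).

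4732440D04Rik, the antisense RNA inside Rb1cc1, fell. Its lowest, median and highest levels were 7.65, 9.91 and 15.6 CPM in WT littermates, 9.43, 10.6 and 15.3 CPM in heterozygous mice and 2.57, 4.94 and 7.99 CPM in homozygous mice. All homozygous mice were below all heterozygous mice, which 0.953% of genes tested were, and 9 of 10 were below all WT mice, the exception being a male at 7.99 CPM. Against WT it fell, with a log2 fold change of -1.06 ± 0.22 (SE, adjusted p = 0.0026). In refits of 1 sex alone it was -1.01 in females (adjusted p = 0.17) and -1.11 in males (adjusted p = 0.054). In the edgeR fit of all mice grouped by genotype and sex, the adjusted p was 0.19 in females and 0.027 in males. Rb1cc1, a kinase-complex scaffold of autophagy on the other strand, had 69.2 ± 4.91 CPM in WT and 70.5 ± 11.2 CPM in homozygous mice, with a log2 fold change of 0.027 ± 0.10 (SE, adjusted p = 0.91). The kit does not mark strand, so reads from the 2 genes cannot be told apart where they overlap.

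Malat1, the speckle RNA, varied within every genotype more than between genotypes. Its lowest, median and highest levels were 1548, 2973 and 4923 CPM in WT, 2300, 3314 and 6054 CPM in heterozygous and 2180, 2904 and 5134 CPM in homozygous mice. Most of each range was shared by the 3 groups. The log2 fold change of homozygous against WT mice was 0.15 ± 0.24 (SE, adjusted p = 0.74). Gm37376, annotated on the other strand within the 5′ part of Malat1, had 15.3% to 24.6% of the Malat1 level in a mouse, and without strand its reads cannot be told from those of Malat1.

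The host genes Snhg8 and Snhg12 were not called in this comparison. Snhg8 had 3.51 ± 0.872 CPM (SD, n = 6) in WT, 2.72 ± 0.982 CPM (SD, n = 7) in heterozygous and 4.55 ± 1.98 CPM (SD, n = 10) in homozygous mice. This was a change of 0.37 ± 0.28 on the log2 scale against WT (SE, adjusted p = 0.44). Snhg12 had 2.04 ± 0.595, 1.84 ± 0.702 and 2.63 ± 0.989 CPM in the same order, and a log2 fold change of 0.35 ± 0.29 (SE, adjusted p = 0.48). Homozygous mice lay both above and within the WT values for both genes. For Snhg8, 4 of 10 homozygous mice exceeded every WT and heterozygous mouse and 3 were below all WT mice. For Snhg12, 4 of 10 exceeded them and none was below the WT mice.

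Kcnq1ot1, the imprinted antisense RNA, had its highest median in heterozygous mice. Its lowest, median and highest levels were 15.2, 23.4 and 34.6 CPM in WT, 19.3, 43.5 and 52.4 CPM in heterozygous and 14.4, 19.3 and 36.0 CPM in homozygous mice. Of the heterozygous mice, 4 of 7 lay above all WT mice. The log2 fold change of homozygous against WT mice was -0.14 ± 0.24 (SE, adjusted p = 0.76).

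**Figure D2:**
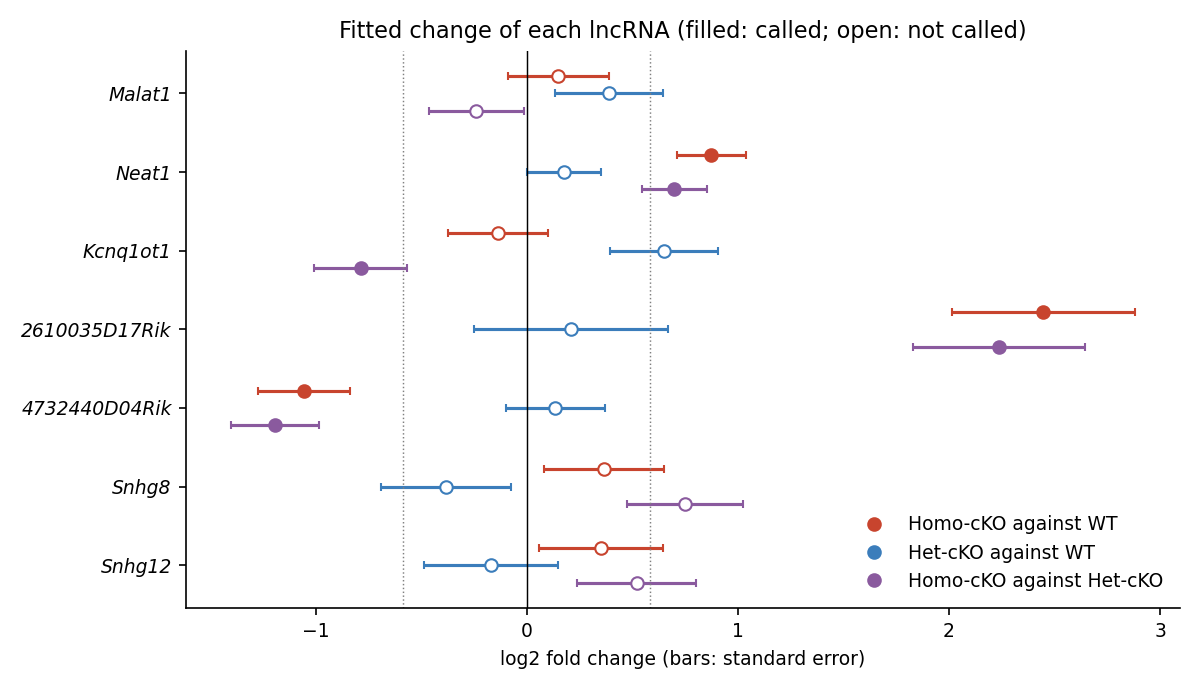
Fitted log2 fold change of the 7 lncRNAs with its standard error (horizontal bars) for the 3 genotype comparisons. Filled points were called and open points were not, and the dotted lines mark a fold change of 1.5. The 2 comparisons with homozygous mice both have Neat1 and 2610035D17Rik filled to the right and 4732440D04Rik to the left, and no point of heterozygous against WT mice is filled.

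Heterozygous mice and WT littermates both carry 1 floxed allele, and only heterozygous mice carry Cre, which removes that allele in neurons. Cre and the loss of 1 neuronal copy of Bin1 therefore cannot be told apart in this comparison. By edgeR, 0 of 7 members were called between heterozygous and WT mice, and 0 of 12908 genes (0%). The same 0 members were called by DESeq2 and by limma-voom. At an unadjusted p below 0.05 there were 998 genes and 1 member, Kcnq1ot1, at a log2 fold change of 0.65 ± 0.26 (SE, unadjusted p = 0.017, adjusted p = 0.57). The log2 fold changes of the other 6 members lay between -0.38 for Snhg8 and 0.39 for Malat1.

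Between homozygous and heterozygous mice, which both carry Cre, 4 of 7 members were called, against 6.62% of all genes tested. This comparison uses the same homozygous libraries as that with WT, and the same members, chosen with earlier results known. Neat1 was higher by 0.70 ± 0.15 on the log2 scale (SE, adjusted p = 0.0021) and 2610035D17Rik by 2.24 ± 0.41 (SE, adjusted p = 0.00049). 4732440D04Rik was lower, with a log2 fold change of -1.19 ± 0.21 (SE, adjusted p = 0.00034). Kcnq1ot1 was lower as well, at -0.79 ± 0.22 (SE, adjusted p = 0.012), with 5 of 10 homozygous mice below all heterozygous mice. Snhg8, at 0.75 ± 0.28, missed the threshold (SE, adjusted p = 0.051) and passed it by DESeq2 (log2 fold change 0.75, adjusted p = 0.030) but not by limma-voom (0.71, adjusted p = 0.074). With 04xx mice alone it had 0.14 (adjusted p = 0.82).

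The sexes were compared as well. In the same fit 0 of 7 differed between males and females at an adjusted p below 0.05, against 0.0852% of all genes. At an unadjusted p below 0.05 there were 0 members and 752 genes. The effect of the homozygous genotype was compared between females and males by an interaction term, and 0 of 7 members and 0 of 12908 genes (0%) passed at an adjusted p below 0.05 in edgeR, and 0 members in limma-voom. No member had an unadjusted p below 0.05 there, and 644 genes did.

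Homozygous mice of the 2 number ranges were also compared. By edgeR 0 of 7 passed between 03xx and 04xx, against 0.442% of genes, and 0 by limma-voom. At an unadjusted p below 0.05 there were 3 members and 1273 of 12908 genes. Snhg8 had 5.59 ± 1.81 CPM (SD, n = 6) in 03xx and 2.99 ± 0.919 CPM (SD, n = 4) in 04xx (log2 fold change 0.90, adjusted p = 0.28). Snhg12 had 3.18 ± 0.88 and 1.81 ± 0.358 CPM (0.81, adjusted p = 0.40), and 4732440D04Rik had 3.94 ± 1.65 and 6.32 ± 1.28 CPM (-0.67, adjusted p = 0.30). Each range was then set against WT in that fit. With 03xx mice the 3 called members all had an adjusted p below 0.05, against 10.8% of genes. With 04xx mice 2 of 7 did, against 6.46% of genes, Neat1 with a log2 fold change of 0.71 (adjusted p = 0.025) and 2610035D17Rik with 2.79 (adjusted p = 0.0012), while 4732440D04Rik had -0.69 (adjusted p = 0.093). In a refit that held no 03xx mice, 4732440D04Rik had -0.68 and passed (adjusted p = 0.049).

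Immediate-early genes, which cells switch on within minutes of a stimulus or of tissue handling, moved with genotype. Of 12 listed, Btg2 is in a stretch listed at 0, other than that of Gas5, and 10 were tested. Of these, 9 rose in homozygous against WT mice at an adjusted p below 0.05, against 5.66% of all genes tested. The summed level of the 12 was 450 to 618 CPM in WT, 454 to 564 CPM in heterozygous and 580 to 13171 CPM in homozygous mice. Of the homozygous mice, 2 females and 2 males, all of the range 03xx, had 8678 CPM or more. The other 6 homozygous mice had 997 CPM or less. Those 4 mice had the 4 highest Snhg8 levels (5.86 to 8.29 CPM), the 4 lowest 4732440D04Rik levels (2.57 to 3.71 CPM) and the 4 lowest Kcnq1ot1 levels among homozygous mice (14.4 to 17.4 CPM). For Neat1 the 2 highest were among them, at 64.4 and 60.4 CPM, and the other 2 had 43.4 and 46.5 CPM. For 2610035D17Rik they had 3.24, 11.4, 3.83 and 16.0 CPM, both low and high.

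Without those 4 mice, a setting chosen after the data were seen, Neat1, 2610035D17Rik and 4732440D04Rik were still called against WT, with log2 fold changes of 0.69 (adjusted p = 0.014), 2.58 (adjusted p = 0.00099) and -0.73 (adjusted p = 0.017). Against heterozygous mice 2 of the 4 calls were lost. Neat1 had a log2 fold change of 0.53 (adjusted p = 0.029), under the fold change threshold, and Kcnq1ot1 had -0.53 (adjusted p = 0.13). Snhg8 had 0.23 (adjusted p = 0.61). Kcnq1ot1 was also not called with females, males or 04xx mice alone, where its log2 fold change was -0.62, -0.96 and -0.67. Neat1 was not called in the same 3 settings, with 0.50 (adjusted p = 0.013), 0.96 (adjusted p = 0.059) and 0.56 (adjusted p = 0.0496), the first and last under the fold change threshold. 2610035D17Rik was not called in females alone (1.92, adjusted p = 0.054), and 4732440D04Rik was called in all 3.

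**Figure D3:**
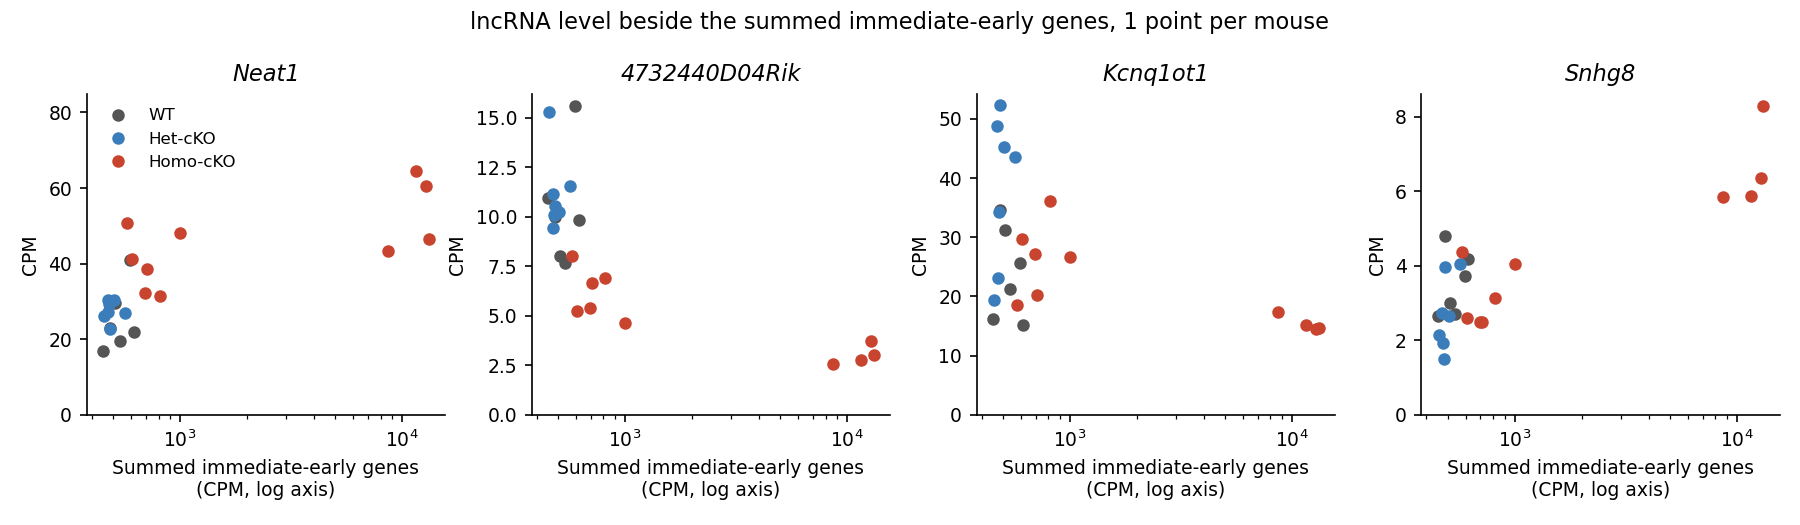
Level of 4 lncRNAs (CPM, linear axis from 0) beside the summed level of the 12 immediate-early genes in the same mouse (CPM, log axis), 1 point per mouse, coloured by genotype. The 4 homozygous mice at 8678 CPM or more hold the lowest 4732440D04Rik and the highest Snhg8 values, and Neat1 in homozygous mice on both sides of the gap exceeds every heterozygous value.

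The sorted cells carried the microglia markers. All 12 listed were found in every mouse, and their summed level was 71471 to 100619 CPM in WT, 68408 to 88600 CPM in heterozygous and 59325 to 70017 CPM in homozygous mice. Of the 12, 8 were lower in homozygous than in WT mice at an adjusted p below 0.05, against 7.09% of all genes tested. Sparc had a log2 fold change of -0.66 and Cx3cr1 of -0.51 (adjusted p = 4.3e-08 and 0.00018). In bulk RNA, fewer cells of a type and less RNA per cell cannot be told apart. The 10 neuron markers summed to between 16.4 and 40.0 CPM in WT, 14.6 and 32.3 CPM in heterozygous and 4.89 and 9.64 CPM in homozygous mice. None was at 0 in all mice. Against WT, 4 of 7 tested were lower at an adjusted p below 0.05, beside the same 7.09% of all genes. Snap25 had a log2 fold change of -2.52 (adjusted p = 9.0e-05). Neuron markers therefore moved with genotype in the same direction as 4732440D04Rik and, against heterozygous mice, Kcnq1ot1, and their part in either result was not tested. Astrocyte, oligodendrocyte, endothelial and border macrophage markers had overlapping sums in WT and homozygous mice. The astrocyte sum was mostly Slc1a3 (205 to 306 CPM), the endothelial sum mostly Pecam1, and the oligodendrocyte sum mostly Cnp, Mbp and Mag. Aldoc, Mobp, Mbp and Pecam1 were lower at an adjusted p below 0.05. The median log2 fold change was -0.53 over 4 astrocyte and -0.56 over 5 oligodendrocyte markers tested. It was 0.0032 over 5 border macrophage markers. The endothelial marker Cldn5 was at 0 in all mice, and the border macrophage marker Mrc1 lies in another stretch listed at 0. Monocyte and neutrophil markers summed to between 4.71 and 40.3 CPM in WT and 12.6 and 101 CPM in homozygous mice. Ccr2 was the 1 of 6 tested that rose (log2 fold change 1.28, adjusted p = 0.00081), against 5.66% of all genes. The part of these markers in the rise of Neat1 was not tested.

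Other lncRNAs of the same kinds, listed likewise with earlier results of these data known, gave a few changes each. Counts are of genes with an adjusted p below 0.05 in homozygous against WT mice, and over all genes tested 5.66% were higher and 7.09% lower. Of 18 other snoRNA host lncRNAs, 13 had a row and 10 were tested. Of these, Snhg17 (log2 fold change 0.81, adjusted p = 0.0023) and Snhg15 (0.95, adjusted p = 0.013) rose and none fell, and the median log2 fold change was 0.22. Snhg17 had 8.32 ± 1.70 CPM in WT and 14.4 ± 3.95 CPM in homozygous mice, and Snhg15 had 4.00 ± 1.62 and 7.66 ± 2.08 CPM. Of 23 other nuclear or regulatory lncRNAs, 10 were tested. Pvt1, the lncRNA beside Myc, rose from 6.72 ± 1.03 to 12.5 ± 2.90 CPM (log2 fold change 0.94, adjusted p = 0.00084). Rn7sk, which holds the elongation factor P-TEFb inactive, fell from 41.5 ± 8.85 to 26.6 ± 5.31 CPM (-0.68, adjusted p = 0.00072). How its reads arose in libraries primed on poly(A) tails was not tested, so the fall may not be that of the working RNA.

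Genes of proteins that work with the members changed less than 1.5-fold in mRNA where they changed between homozygous and WT mice. All values here are of mRNA, and the proteins themselves were not measured. Of 20 paraspeckle proteins tested, 3 rose, among them Hnrnpk (log2 fold change 0.27, adjusted p = 0.0044) and Nono (0.19, adjusted p = 0.026), and Rbm12 fell (-0.27, adjusted p = 0.049). Of 23 nuclear speckle and splicing factors tested, 3 rose and none fell, Tra2b at 0.42 (adjusted p = 0.0041), the speckle protein Srrm1 at 0.39 (adjusted p = 0.0042) and Srsf5 at 0.41 (adjusted p = 0.037). Of 14 snoRNP core proteins, 2 rose, the C/D box protein Snu13 at 0.24 (adjusted p = 0.015) and the H/ACA box protein Gar1 at 0.41 (adjusted p = 0.043). Among 13 nonsense-mediated decay factors tested, 0 passed in edgeR in either direction, and the 4 with the smallest unadjusted p, Casc3, Smg6, Magoh and Smg1, had unadjusted p from 0.088 to 0.15. The medians of these 4 lists were 0.15, 0.17, 0.17 and -0.051, against 0.012 for all genes. Against heterozygous mice, Smg6 (-0.42, adjusted p = 0.0024) and Smg1 (-0.61, adjusted p = 0.0035) were lower and none of the decay factors was higher, and Smg1 was past the 1.5-fold threshold. In that comparison 11.1% of all genes tested were higher and 11.7% lower. Of the 20 paraspeckle protein genes 3 were higher and 3 lower. Of the 23 speckle and splicing factor genes 2 were higher and 3 lower. Of the 14 snoRNP protein genes 2 were higher and none lower. The changes in these 3 lists were all less than 1.5-fold.

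In the imprinted domain around Kcnq1ot1, several genes had little or no signal. Kcnq1 had at most 0.292 CPM in a mouse and Phlda2 was at 0 in all. Of 15 genes listed in the domain, 8 were tested and 0 passed between homozygous and WT mice. Cdkn1c, a cell cycle inhibitor and the nearest protein-coding gene at higher coordinates, had 12.2 ± 2.23 CPM in WT, 11.3 ± 2.34 CPM in heterozygous and 15.9 ± 3.48 CPM in homozygous mice. Between homozygous and heterozygous mice, where Kcnq1ot1 was lower, 3 of 8 genes in the domain were higher and none lower, against 11.1% and 11.7% of all genes. On the log2 scale Cdkn1c was higher by 0.49 ± 0.15 (SE, adjusted p = 0.019) and Nap1l4 by 0.16 ± 0.053 (SE, adjusted p = 0.031). Against WT, Cdkn1c had 0.38 ± 0.16 (SE, adjusted p = 0.11) and Kcnq1ot1 had -0.14 ± 0.24 (SE, adjusted p = 0.76). Whether these genes and Kcnq1ot1 are linked was not tested, and alleles were not told apart. Its call against heterozygous mice was lost without the homozygous mice of high immediate-early level.

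Genes next to the members were read from the same fit. Frmd8, a protein-coding gene beside Neat1, had a log2 fold change of -0.14 in homozygous against WT mice (adjusted p = 0.21) while Neat1 rose. Slc39a11, a zinc transporter gene 43014 bases from 2610035D17Rik on the same strand, fell from 75.0 ± 8.90 CPM in WT to 54.5 ± 9.17 CPM in homozygous mice (log2 fold change -0.46, adjusted p = 0.0075). Sox9, on the other side, had at most 1.36 CPM in a mouse. Slc3a2, which starts 105 bases from Snhg1 on the other strand, fell by 0.30 on the log2 scale (adjusted p = 0.013). Trnau1ap and Rab42 beside Snhg12 had log2 fold changes of 0.23 and -0.10 (adjusted p = 0.22 and 0.84). Prss12 and Ndst3 beside Snhg8, Trpm5 beside Kcnq1ot1, and Npbwr1 and Alkal1 beside 4732440D04Rik had too few counts to be tested.

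**Figure D4:**
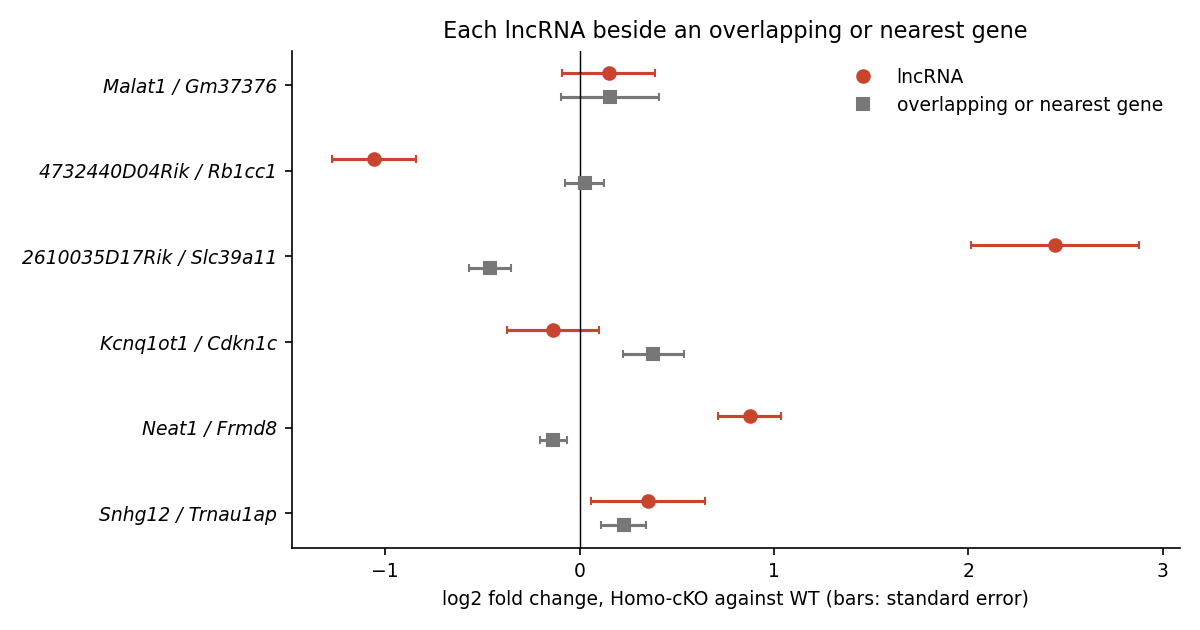
Log2 fold change of homozygous against WT mice, with its standard error, for 6 lncRNAs (circles) and for an overlapping or nearest gene (squares). Rb1cc1 stays near 0 beside 4732440D04Rik at -1.06, Slc39a11 lies at -0.46 beside 2610035D17Rik at 2.45, and Gm37376 lies where Malat1 does.

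Genes with the most similar pattern to each member were found by Pearson's r of log2 CPM over the 23 mice, as a description. The mice share genotype and number range, which alone can give a high r, so r with the genotype means removed follows each value. 2610035D17Rik was nearest to Eno1 (0.89 and 0.78), Cd52 (0.88 and 0.83) and Capzb (0.87 and 0.67), which are all on chromosome 4, at chr4:150236721-150248879, chr4:134082448-134095082 and chr4:139192899-139291818, whereas 2610035D17Rik is on chromosome 11. 4732440D04Rik was nearest to Snrpn (0.87 and 0.64), Mt3 (0.86 and 0.56) and H2afj (0.84 and 0.58). Neat1 was nearest to Mid1 (0.84 and 0.63), D830025C05Rik (0.84 and 0.74) and Hist1h3e (0.83 and 0.59).

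The other members were nearest to genes that did not pass the test in homozygous against WT mice. Kcnq1ot1 was nearest to Gm26547 (0.95 and 0.94), Gm17132 (0.95 and 0.92) and the mitochondrial ribosomal RNA mt-Rnr1 (0.94 and 0.91). Malat1 was nearest to the overlapping Gm37376 (0.97 and 0.97), Cbx1 (0.86 and 0.91) and Gm29216 (0.85 and 0.84). Snhg8 was nearest to 2410006H16Rik (0.84 and 0.78), March7 (0.81 and 0.77) and the splicing factor gene Srsf6 (0.80 and 0.81). Snhg12 was nearest to March7 (0.78 and 0.73), Snhg8 (0.78 and 0.73) and Ypel3 (0.77 and 0.77), so each of the 2 measured host genes has March7 among its 3 nearest.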

How the data were processed

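RNA of sorted microglia was sequenced as single-end 50-base reads (SMARTer Ultra Low Input v4 and Nextera XT, which do not mark strand). The authors used OSA4 for alignment to mm10 (gene model Ensembl R84) and RSEM for quantification, and the deposited expected counts are not normalized. Of 25 labelled samples, 23 have a column. The authors removed a WT female and a heterozygous male for quality. Counts were rounded, genes kept by filterByExpr and normalized by TMM, and genotype and sex were fitted with edgeR 4.0.16 (quasi-likelihood test, R 4.3.3). DESeq2 1.42.0 and limma-voom (limma 3.58.1) were alternatives, with other normalizations, filters, samples and each mouse left out. Log2 CPM for correlations used a prior count of 2. The test was first run on simulated counts with known changes. Symbols and coordinates came from GENCODE M21 (GRCm38), matching 42929 of 43411 identifiers. Start sites came from RefSeq, which had 7 of the 9 members. Members and gene lists were chosen with earlier results of these data known. Named genes were all members, up to 4 per list by smallest p for homozygous against WT mice, overlapping and nearest protein-coding genes, and the 3 most similar genes per member. Some genes that this rule names are not reported here. The labels give separate animals as replicates.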

Additional observations from a re-analysis of the deposited data

Results flagged for a closer look

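Each of the 7 lncRNAs was looked at within each genotype for a mouse far from the others, 21 groups of values in all, where chance alone flags about 1 in 20 groups. In 1 of them a single mouse stood apart. A heterozygous male had 15.3 CPM of 4732440D04Rik, and the next heterozygous mouse had 11.5 CPM. No difference in the homozygous effect between the sexes passed its test for any member.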

How the results depend on the processing

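The count of members called in homozygous against WT mice was 3 in the fit reported and 3 in every alternative but the 2 with 1 sex: 1 in females alone and 1 in males alone. Against heterozygous mice it was 4, and 1 in females alone, 2 in males alone, 2 with the homozygous mice numbered 04xx alone and 2 without the 4 homozygous mice of high immediate-early level. It was 5 with the CPM filter, DESeq2 size factors, both DESeq2 fits, robust edgeR, no sex term, total counts and 03xx mice alone. Leaving out each mouse in turn gave 3 to 3 members against WT and 4 to 5 against heterozygous mice. Where there were 5, the fifth was Snhg8. Neat1 lost its adjusted p below 0.05 in the refit of males alone, 2610035D17Rik in that of females alone, and 4732440D04Rik in each. In the fit of all mice grouped by genotype and sex, these 3 members had an adjusted p below 0.05 in males, and none had it in females. Changes that did not pass the test turned sign in some settings. Snhg8 was -0.0081 in females alone, -0.23 with 04xx mice alone and -0.14 without the 4 high immediate-early mice, Snhg12 was -0.19 with 04xx mice alone, and Kcnq1ot1 was 0.13 without those 4 mice and -0.27 to 0.014 with each mouse left out, positive without a WT female. The fits of 1 sex or 1 range hold fewer mice, and the cause was otherwise not tested. No paired analysis was possible because the genotypes share no animal numbers. Gas5 and Snhg1 could not be measured, and Snhg8 and Snhg12 rest on at most 110 and 53 counts per mouse. The part of depth in their standard errors was not tested.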
